A study of Mus musculus with 14 samples.

Results

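The digestive hydrolases and sugar transporters described here are 10 genes whose products stand on the absorptive surface of the small intestine: Alpi, Sis, Lct, Mgam, Treh, Anpep, Dpp4, Slc5a1, Slc2a2 and Slc2a5. They were listed by name, with earlier results of these data known. All 10 were found among the 18820 genes with a probe set of their own on the Affymetrix Mouse Gene ST 1.1 array. Each of the 10 had 1 such probe set. Their levels were read on all 14 arrays, which fall into 7 groups. Values are log2 RMA signals, in which a step of 1 is a 2-fold difference in signal, and a silent gene still shows a background signal that differs between probe sets. The level of one gene therefore cannot be set against that of another.

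The study asked what happens to small intestinal stem cells when they lose Cdx2, the homeobox factor that sets intestinal identity. The mice had a mixed C57Bl6j/CBA background and, per the labels, carried a null and a floxed Cdx2 allele (Cdx2-/fl) together with the Lgr5-EGFP-Ires-CreERT2 knock-in. This knock-in marks stem cells with EGFP and drives a tamoxifen-dependent Cre from the Lgr5 promoter, so Cre is made in Lgr5-expressing cells. The control stem cells (SCs) thus already lacked 1 of their Cdx2 alleles. Cdx2null SI SCs had lost the floxed allele as well, after 4-hydroxytamoxifen was given to intestinal organoids, whereas controls received none. The sorted groups were EGFP-high cells of organoids in Sto medium: control small intestinal SCs (control SI SCs, n = 3), Cdx2null SI SCs (n = 2) and control SCs of the pyloric stomach (control Sto SCs, n = 2). Sorted cells came from clonal organoids. The other arrays held whole control organoids, which the labels also describe as clonal and Cdx2-/fl, whereas the study's text calls them wild type and grown from glands and crypts. SI organoids were grown in SI medium, which supplies R-spondin, Noggin and EGF (n = 3), or in Sto medium, which adds Wnt3a, Fgf10 and gastrin (n = 1). Sto organoids were likewise grown in SI medium (n = 2) or in Sto medium (n = 1). The study describes its samples as independent, but does not tie each array to a clone or an animal, so the p-values measure the spread between these arrays.

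Enterocytes, the absorptive cells of the villus, finish digestion with enzymes anchored in the microvilli of their brush border. Disaccharidases cut starch fragments, sucrose, lactose and trehalose into single sugars, peptidases shorten peptides, and intestinal alkaline phosphatase strips phosphate groups from lipids and bacterial products. The freed sugars enter through the sodium-coupled carrier SGLT1 and the fructose carrier GLUT5, and glucose leaves towards the blood through GLUT2. Most of these genes are switched on as cells leave the crypt and mature. Cdx2 is known to bind the sucrase-isomaltase promoter, at sites with the core letters TTTAT.

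The promoters of the genes are shown because loss of Cdx2 is the treatment, and because genes that moved with it and genes that did not can then be read side by side. The sequences are RefSeq promoter windows of build GRCm38.p6, each holding the 250 bases before the start of the gene and running 5′ to 3′ on the strand of the gene. Capitals mark TTTAT or its reverse complement ATAAA. Alpi, Sis and Slc5a1 had lower levels in Cdx2null SI SCs, Lct stayed close to its background there, and Anpep was high with and without Cdx2.
Alpi (chr1:87101607-87101856, minus strand): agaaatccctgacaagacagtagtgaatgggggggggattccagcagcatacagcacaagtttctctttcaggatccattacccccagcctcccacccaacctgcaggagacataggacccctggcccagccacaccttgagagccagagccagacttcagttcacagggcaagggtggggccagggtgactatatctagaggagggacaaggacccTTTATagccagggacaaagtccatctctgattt
Sis (chr3:72967864-72968113, minus strand): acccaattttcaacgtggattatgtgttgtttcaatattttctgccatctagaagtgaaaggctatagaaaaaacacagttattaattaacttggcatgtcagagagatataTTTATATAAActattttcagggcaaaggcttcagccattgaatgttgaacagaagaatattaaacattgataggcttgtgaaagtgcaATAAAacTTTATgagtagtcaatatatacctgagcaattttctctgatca
Lct (chr1:128328319-128328568, minus strand): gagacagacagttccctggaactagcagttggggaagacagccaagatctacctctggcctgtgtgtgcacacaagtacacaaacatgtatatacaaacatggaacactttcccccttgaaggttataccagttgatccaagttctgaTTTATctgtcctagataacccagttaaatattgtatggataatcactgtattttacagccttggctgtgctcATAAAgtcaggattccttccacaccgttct
Slc5a1 (chr5:33103969-33104218, plus strand): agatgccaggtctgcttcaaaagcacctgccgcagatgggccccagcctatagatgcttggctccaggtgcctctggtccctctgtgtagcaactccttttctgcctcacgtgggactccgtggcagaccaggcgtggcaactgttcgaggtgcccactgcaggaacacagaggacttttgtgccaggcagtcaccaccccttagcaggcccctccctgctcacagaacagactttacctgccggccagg
Anpep (chr7:79848211-79848460, minus strand): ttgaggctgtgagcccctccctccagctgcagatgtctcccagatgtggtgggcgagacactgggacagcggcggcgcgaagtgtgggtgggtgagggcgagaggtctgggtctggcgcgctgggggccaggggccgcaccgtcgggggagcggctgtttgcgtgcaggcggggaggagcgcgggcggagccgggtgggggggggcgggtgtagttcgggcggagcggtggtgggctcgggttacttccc
The core TTTAT, searched on both strands, lay in the windows of 5 of the 10 genes (Alpi, Sis, Lct, Mgam and Dpp4), and 37.3% of all 32851 promoter windows of this length held it. Sis had 4 matches, which began 138, 133, 50 and 43 bases before the start. In Alpi the match began 33 bases before the start, where the letters also overlap a TATA box (TATAAA) read on the other strand. The letters TATAAA always hold ATAAA, and such an overlap was also present in Sis, Mgam and Dpp4. It covered the Sis matches at 138 and 133 bases, the Mgam match at 29 and the Dpp4 match at 226. Lct had matches 102 and 30 bases before the start. The windows of Slc5a1 and Anpep held none. The longer form TTTATNG lay in 3 windows (Alpi, Sis and Dpp4), against 9.81% of all windows. The letters CAAAGTCCA, a site known for Hnf4 factors, lay in Alpi and Treh, against 0.384% of all windows. A match is a description of letters in these windows, and no binding was measured on these samples.

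Several arrays need a word before the results. Array medians ran from 4.72 to 5.05. Array 3 of the SI organoids in SI medium and array 3 of the control SI SCs had been exported differently, with 100% of values on a rounded linear scale against 0.155% to 0.231% elsewhere. The library labelled SI organoids in SI medium 1 went against its label. Its Cdx2 signal was 5.52, against 9.19 to 9.92 in the other SI organoids and 4.57 to 5.57 in the Sto organoids. Each of the 10 genes was closer there to its level in Sto organoids in Sto medium than to the mean of SI organoids in SI medium 2 and 3, as 65% of all genes were. Results that rest on this library are given with and without it. It was singled out after the data were seen, and levels of the 10 genes were part of what was seen. Counts of these genes without it, and their p-values, are thus descriptions.

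Cdx2, the targeted gene, stood at 9.04, 10.05 and 8.94 in control SI SCs, at 8.41 and 4.88 in Cdx2null SI SCs, and at 5.08 and 4.67 in control Sto SCs. The library labelled Cdx2null SI SCs 1 was thus near the controls, which goes against its label, while Cdx2null SI SCs 2 was near control Sto SCs. Per the study's methods, the Cdx2 probes also cover the part of the gene that remains after deletion. The calls in Cdx2null SI SCs are therefore also given without each of these arrays. Where leaving out an array leaves 1 in a group, that array is assumed to vary like the other groups. Lgr5, the gene behind the sort, stood between 10.77 and 11.56 on all 7 SC arrays. Control SI SCs 1 and 3 read as male, by low Xist (3.35 and 3.77) and high Kdm5d (7.10 and 7.74). Control SI SCs 2 and all Cdx2null and control Sto SC arrays read as female, with Xist between 11.31 and 12.05. In the sorted cells, sex and group were thus confounded in part, and results with a term for sex are given below.

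**Figure D1:**
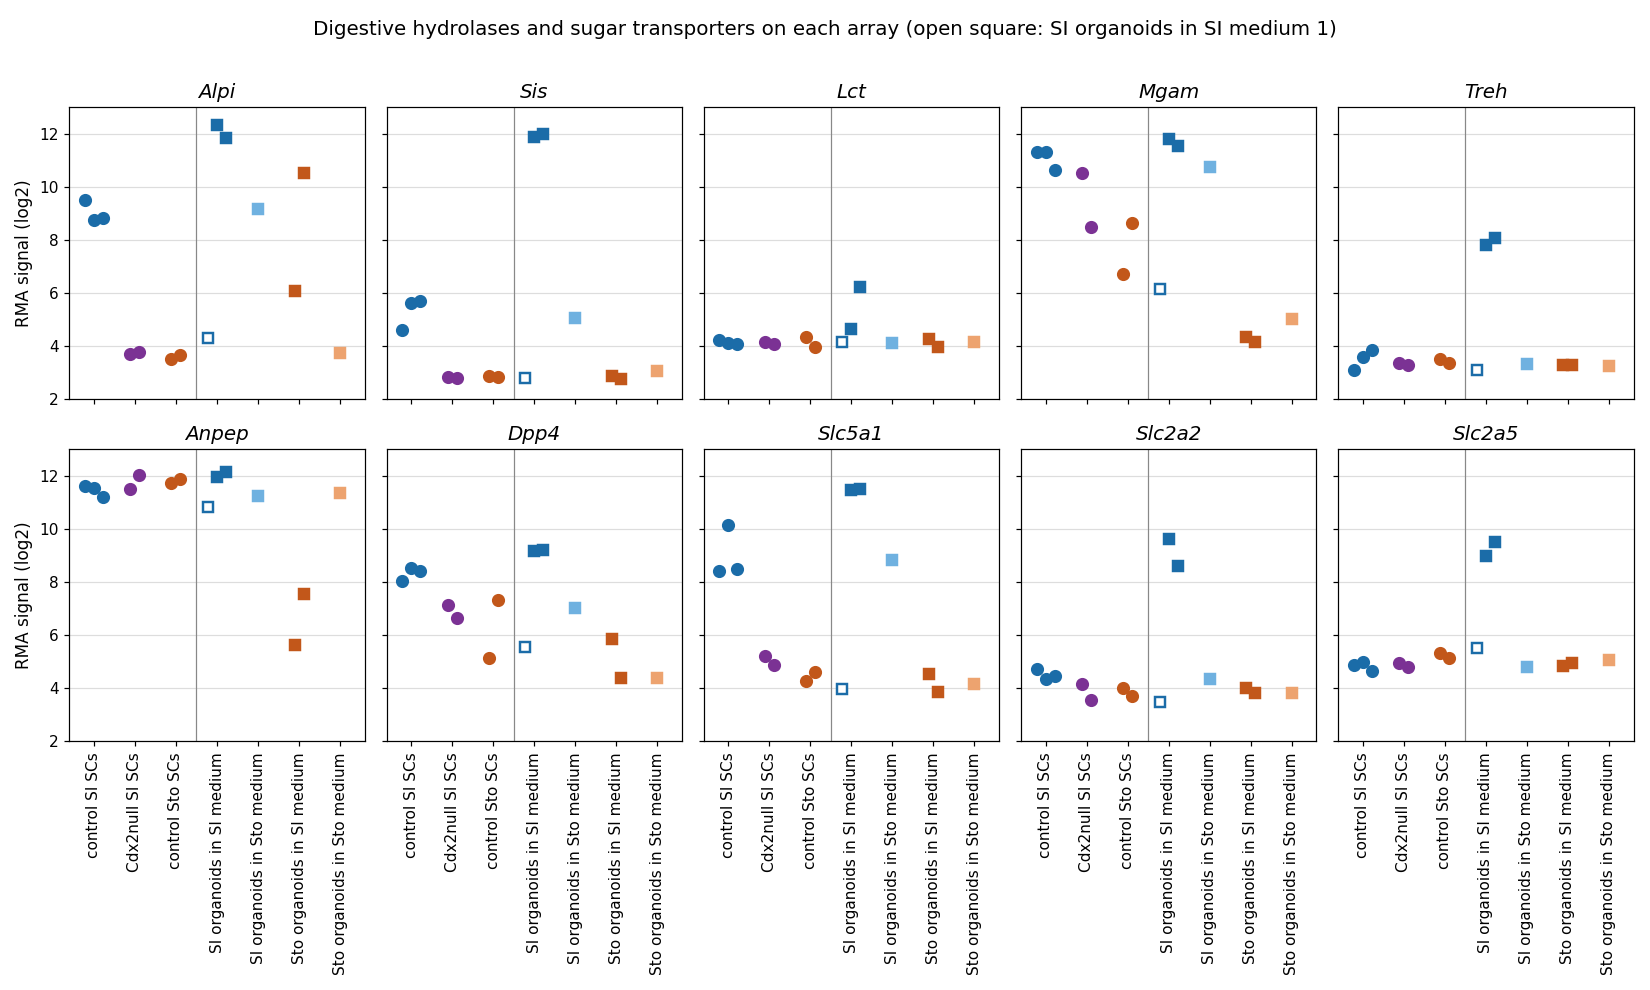
Signal of each of the 10 genes (y axis, log2 RMA signal) on each of the 14 arrays by group (x axis), with circles for sorted stem cells, squares for whole organoids and an open square for the library labelled SI organoids in SI medium 1. Alpi, Sis and Slc5a1 were lower in Cdx2null SI SCs and control Sto SCs than in control SI SCs, the highest array of each gene was SI organoids in SI medium 2 or 3, and Anpep was low only in Sto organoids in SI medium.

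In the sorted stem cells, the 10 genes split into 3 that were lower without Cdx2 (Alpi, Sis and Slc5a1), 4 whose group means lay within 0.40 of the controls (Lct, Treh, Anpep and Slc2a5) and 3 in between (Mgam, Dpp4 and Slc2a2). Genes count as called here at an adjusted p under 0.05 in limma together with a difference of at least 2-fold. Alpi, Sis and Slc5a1 were called lower in Cdx2null SI SCs than in control SI SCs, which is 3 of 10 lower and 0 higher. Over all genes tested, 0.595% were called lower and 0.93% higher. The same 3 genes were called lower in control Sto SCs than in control SI SCs, where 0.914% of all genes were called lower and 1.94% higher. Both comparisons use the same 3 control SI SC arrays. By the methods' t-test after Benjamini-Hochberg adjustment, 0 of the 10 genes were called in either. In a fit that also held the 7 organoid arrays, 0 of the 10 were called as well. With the library labelled SI organoids in SI medium 1 taken out of that fit, the same 3 were called lower in Cdx2null SI SCs, and these 3 and Mgam in control Sto SCs. The median difference of the 10 genes was -1.05 for Cdx2null SI SCs and -1.37 for control Sto SCs, beside medians over all genes of 0.03 and 0.03. In bulk RNA, fewer cells of a type and less RNA per cell cannot be told apart.

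Alpi, which encodes intestinal alkaline phosphatase, showed the widest separation among the sorted cells. It stood at 9.49, 8.75 and 8.83 in control SI SCs, at 3.69 and 3.77 in Cdx2null SI SCs and at 3.49 and 3.67 in control Sto SCs. The controls lay far above the other 4 arrays, which lay close together. The difference was -5.29 ± 0.24 (limma SE, 39.2-fold, adjusted p = 0.000694) for Cdx2null SI SCs and -5.44 ± 0.24 (43.5-fold, adjusted p = 0.000482) for control Sto SCs. In both comparisons Alpi stayed called when any single array of the groups compared was left out, at -5.25 ± 0.32 without the library labelled Cdx2null SI SCs 1 (adjusted p = 0.00270) and -5.33 ± 0.32 without Cdx2null SI SCs 2 (adjusted p = 0.00600).

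Of the disaccharidases, Sis was called and the others were not. Sis, which makes sucrase-isomaltase, stood at 4.60, 5.61 and 5.71 in control SI SCs. It stood at 2.81 and 2.79 in Cdx2null SI SCs and at 2.86 and 2.83 in control Sto SCs, so the groups did not overlap. The difference was -2.50 ± 0.32 (5.66-fold, adjusted p = 0.0143) for Cdx2null SI SCs and -2.46 ± 0.32 (5.50-fold, adjusted p = 0.0119) for control Sto SCs. For Cdx2null SI SCs this call was lost without either Cdx2null array or without control SI SCs 3 (adjusted p = 0.0569 to 0.0968), and for control Sto SCs without either stomach array (adjusted p = 0.0789 and 0.0806). Sis lay below the array median on control SI SCs 1 and above it on the other control SI SC arrays.

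Mgam, whose product maltase-glucoamylase releases glucose from starch fragments, was less even. It stood at 11.32, 11.32 and 10.64 in control SI SCs, at 10.52 and 8.47 in Cdx2null SI SCs and at 6.70 and 8.64 in control Sto SCs. All 4 arrays of the latter groups lay below the controls, but the library labelled Cdx2null SI SCs 1 did so by little. The difference was -1.60 ± 0.73 (adjusted p = 0.476) for Cdx2null SI SCs and -3.42 ± 0.73 (10.7-fold, adjusted p = 0.0588) for control Sto SCs, neither of which was called. The latter was called after quantile normalisation, median centring or removal of dim genes (adjusted p = 0.0392, 0.0165 and 0.0211).

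Lct and Treh, for lactase and trehalase, stayed near background in every sorted population. Lct lay between 3.97 and 4.35 and Treh between 3.10 and 3.85 on the 7 SC arrays, and the groups overlapped. The difference of Cdx2null from control SI SCs was -0.02 ± 0.16 for Lct and -0.20 ± 0.23 for Treh. At this level a loss would not have been detectable.

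The peptidases went separate ways. Dpp4, which removes dipeptides from peptide ends and inactivates incretin hormones, stood at 8.06, 8.54 and 8.43 in control SI SCs. It stood at 7.13 and 6.66 in Cdx2null SI SCs and at 5.15 and 7.34 in control Sto SCs, below the controls on all 4 arrays. The difference was -1.44 ± 0.57 (adjusted p = 0.390) for Cdx2null SI SCs and -2.10 ± 0.57 (adjusted p = 0.120) for control Sto SCs, and neither was called. The stomach arrays were far apart, and without control Sto SCs 2, the higher of them, the difference from control SI SCs was -3.19 ± 0.29 (adjusted p = 0.0145). That call rests on the 1 stomach array left, at 5.15.

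Anpep, encoding aminopeptidase N, was as high in stomach as in intestinal stem cells. It stood at 11.61, 11.53 and 11.19 in control SI SCs, at 11.49 and 12.02 in Cdx2null SI SCs, and at 11.74 and 11.88 in control Sto SCs. The difference was 0.31 ± 0.21 (adjusted p = 0.690) for Cdx2null SI SCs and 0.36 ± 0.21 (adjusted p = 0.515) for control Sto SCs. No array of any sorted group was below 11.19.

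Among the transporters, Slc5a1 was called and the facilitative carriers were not. Slc5a1, for the sodium-glucose carrier SGLT1, stood at 8.41, 10.17 and 8.50 in control SI SCs, at 5.22 and 4.88 in Cdx2null SI SCs and at 4.27 and 4.61 in control Sto SCs. Every control lay more than 3 above every other SC array. The difference was -3.98 ± 0.51 (15.8-fold, adjusted p = 0.0143) for Cdx2null SI SCs and -4.59 ± 0.51 (24.1-fold, adjusted p = 0.00664) for control Sto SCs. The first of these calls was lost without Cdx2null SI SCs 2 (adjusted p = 0.102) and held without the library labelled Cdx2null SI SCs 1 (-4.14 ± 0.69, adjusted p = 0.0493), and the second without control Sto SCs 1 (adjusted p = 0.0538).

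Slc2a2, for the glucose carrier GLUT2, stood at 4.74, 4.36 and 4.45 in control SI SCs, at 4.17 and 3.57 in Cdx2null SI SCs and at 4.02 and 3.71 in control Sto SCs. The groups did not overlap, but the differences were small (-0.65 ± 0.23 for either group, adjusted p = 0.304 and 0.213). Slc2a5, for the fructose carrier GLUT5, lay between 4.67 and 5.33 on the 7 SC arrays and differed by 0.03 ± 0.16 in Cdx2null SI SCs. The medians of these arrays ran from 4.72 to 5.05, and at such a level a loss of Slc2a5 may not have been detectable. Counting by arrays alone, 6 of the 10 genes lay below all control SI SCs in both Cdx2null SI SCs, beside 9.52% of all genes. The same count was 6 of 10 in control Sto SCs, beside 10.6%.

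**Figure D2:**
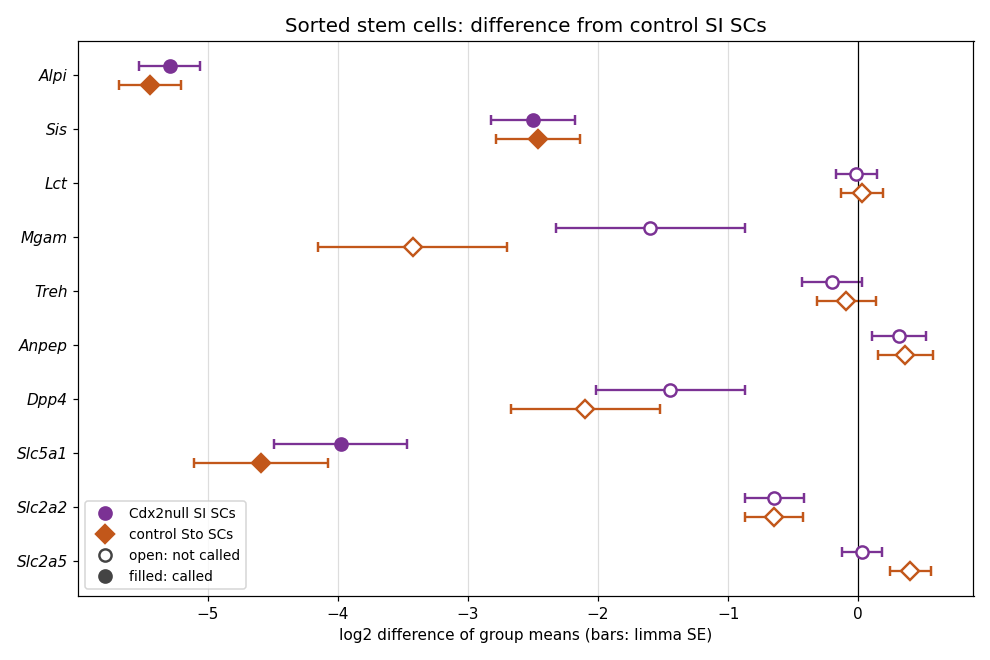
Difference from control SI SCs (x axis, log2, bars show the limma SE) for each of the 10 genes in Cdx2null SI SCs (circles) and control Sto SCs (diamonds), filled where called. Alpi, Sis and Slc5a1 were called in both groups, the open Mgam and Dpp4 points lay below 0 with wide errors, and Lct, Treh, Anpep and Slc2a5 lay within 0.40 of 0.

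Cdx2null SI SCs and control Sto SCs were then compared with each other. Of the 10 genes, 0 were called, and 0% of all genes were called lower and 0% higher by limma, while 286 genes had an unadjusted p under 0.05. The methods' t-test called 0 genes after Benjamini-Hochberg adjustment. Mgam showed the widest difference of the 10, 1.82 ± 0.79 higher in Cdx2null SI SCs (adjusted p = 1), and its arrays overlapped. Slc5a1 differed by 0.61 ± 0.56, Dpp4 by 0.65 ± 0.63 and Alpi by 0.15 ± 0.26. With 2 arrays a group, a p that misses the threshold does not show that the levels were equal.

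Other genes of sugar and brush border digestion were read as fixed lists. Of 16 other brush border hydrolases, 1 was called lower in Cdx2null SI SCs and 0 higher (median difference -0.09). That gene was Akp3, another intestinal alkaline phosphatase gene, with 9.19, 8.80 and 8.34 in control SI SCs and 4.63 and 4.47 in Cdx2null SI SCs. Its difference was -4.23 (adjusted p = 0.00139). Sequences of the Alpi and Akp3 transcripts are alike, and whether their probe sets share signal was not tested. Control Sto SCs had 2 hydrolases called lower, Akp3 and the meprin subunit gene Mep1b (-2.04, adjusted p = 0.0401). They had 3 called higher, namely Enpp3 (3.45, adjusted p = 0.0189), Alpl (3.17, adjusted p = 0.0451) and Ace (1.68, adjusted p = 0.0366).

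Of 15 other sugar carriers, 0 were called in Cdx2null SI SCs by limma, and Slc2a10 was called higher in control Sto SCs (2.09, adjusted p = 0.0276). Slc2a1, the widespread glucose carrier GLUT1, lay between 11.07 and 11.64 on all 7 SC arrays. Of 11 genes that handle fructose and glucose inside the cell, 1 was called lower in Cdx2null SI SCs. This was Fbp1, the gluconeogenic fructose-bisphosphatase, with 8.16, 9.02 and 7.11 in control SI SCs against 4.05 and 3.40 (difference -4.37, adjusted p = 0.0116). Fbp1 was also lower in control Sto SCs (-4.03, adjusted p = 0.0116), as was Pklr, for pyruvate kinase (-1.27, adjusted p = 0.0486). The medians of these lists were 0.08 for the carriers and -0.24 for the intracellular enzymes in Cdx2null SI SCs.

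Transcription factors known at such promoters moved with the 3 called genes in part. Of 13 measured, 3 were called lower in Cdx2null SI SCs and 0 higher. They were Cdx1 (-2.75, adjusted p = 0.00739), the homeobox gene Isx (-4.29, adjusted p = 0.0116) and the nuclear receptor gene Hnf4g (-1.55, adjusted p = 0.00601). All of these were called lower in control Sto SCs too, where Foxa2 was called higher (1.03, adjusted p = 0.0464). Hnf4a, Gata4 and Cdx2 itself were not called in either comparison. Cdx2 nevertheless stood at 5.08 and 4.67 in control Sto SCs, far below the 8.94 to 10.05 of control SI SCs. The SC groups share an estimate of spread in this fit, and the Cdx2null arrays lay far apart in Cdx2 (8.41 and 4.88). Hnf4a lay between 10.93 and 11.60 in control SI SCs, without overlap with the other groups. It stood at 10.66 and 10.23 in Cdx2null SI SCs and at 10.42 and 10.43 in control Sto SCs. Gata4 lay between 9.19 and 10.08 on the 7 SC arrays. Enterocyte markers moved in the same direction as the called genes. Of 10, 4 were called lower in Cdx2null SI SCs and the same 4 in control Sto SCs (Fabp2, Apoa1, Rbp2 and Cdhr5), with 0 called higher in either. The mean of that list, each gene centred on its own mean over 14 arrays, lay between 0.06 and 1.06 in control SI SCs, between -1.96 and -1.57 in Cdx2null SI SCs and between -1.91 and -1.87 in control Sto SCs. Of 10 gastric markers, 5 were called higher in Cdx2null SI SCs and 7 in control Sto SCs, while 0 of 4 proliferation genes were called in either by limma. In Cdx2null SI SCs, 1 of 5 intestinal stem cell, 1 of 6 goblet and 2 of 5 Paneth markers were called lower and 1 of 4 tuft markers higher. There, 0 of the 5 enteroendocrine, 5 mesenchymal, 5 immune and 3 endothelial markers were called. In control Sto SCs, 2 of 5 intestinal stem cell, 3 of 6 goblet and 2 of 5 Paneth markers were called lower. How far cells with enterocyte transcripts within the sort take part in the result was not tested.

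Whole SI organoids in SI medium held the highest level of each of the 10 genes, on array 2 or 3. There, 10 of 10 genes lay above all control SI SCs on both arrays, beside 11.9% of all genes. These organoids were unsorted and also in another medium than the sorted cells. On the 1 array of unsorted SI organoids in the medium of the sorted cells, 8 of the 10 genes lay within the range of control SI SCs, and all 10 lay below both arrays in SI medium. With all 3 arrays of the group, 0 of the 10 genes were called against control SI SCs by limma, and 0.122% of all genes were called lower and 0.0372% higher. Without the library labelled SI organoids in SI medium 1, 5 of the 10 were called higher and 0 lower, beside 2.93% and 2.18% of all genes.

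Genes near background in the sorted cells were prominent among these 5. Treh stood at 3.11, 7.80 and 8.06 in SI organoids in SI medium 1, 2 and 3, against 3.10 to 3.85 in control SI SCs. Slc2a2 stood at 3.48, 9.61 and 8.62, and Slc2a5 at 5.51, 8.97 and 9.52. Without array 1 the differences were 4.42 ± 0.21 for Treh, 4.60 ± 0.29 for Slc2a2 and 4.40 ± 0.19 for Slc2a5. The adjusted p was 2.13e-06 for Treh, 1.69e-05 for Slc2a2 and 1.15e-06 for Slc2a5, so the trehalase gene and both facilitative carriers were among the called.

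Sis showed the widest rise, with 2.81, 11.88 and 12.00 in the 3 organoid arrays and a difference from control SI SCs of 6.64 ± 0.29 without array 1 (99.5-fold, adjusted p = 1.19e-06). With it, the difference was 3.59 ± 2.00 (adjusted p = 0.670). Slc5a1 stood at 3.96, 11.47 and 11.50, and its difference turned from -0.05 ± 1.69 with array 1 to 2.46 ± 0.47 without it (adjusted p = 0.0133). Alpi stood at 4.30, 12.32 and 11.85 and differed by 3.06 ± 0.97 without array 1, which was not called (adjusted p = 0.107). The remaining genes were not called with or without array 1. Lct, at 4.14, 4.64 and 6.23, left its background on array 3, and Mgam, Anpep and Dpp4 lay 0.59 to 0.87 above control SI SCs without array 1. With array 1, Mgam (-1.26) and Dpp4 (-0.36) lay below them.

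Origin was compared between Sto and SI organoids in the same SI medium. With all arrays, 0 of the 10 genes were called by limma, beside 0.887% of all genes lower and 0.526% higher, and 2 of the 10 had an unadjusted p under 0.05 (Mgam and Anpep). Without the library labelled SI organoids in SI medium 1, 8 of the 10 genes were called lower in Sto organoids and 0 higher, beside 6.29% and 7.57% of all genes. This fit rests on 2 arrays a group, and array 3 of the SI organoids had been exported differently. With SI organoids in SI medium 2 or 3 left out instead, 0 of the 10 were called. Marker lists of several cell types moved with the 10 genes in the fit without array 1. Called lower in Sto organoids were 8 of 10 enterocyte, 5 of 5 intestinal stem cell, 5 of 5 Paneth, 4 of 5 enteroendocrine, 4 of 6 goblet, 3 of 4 tuft and 4 of 4 proliferation genes, and 8 of 10 gastric genes were called higher. Against these directions, 1 enterocyte gene (Krt20) and 1 tuft gene (Avil) were called higher and 1 gastric gene (Pgc) lower. With all arrays, 3 of 5 intestinal stem cell, 1 of 4 tuft and 4 of 4 proliferation genes were called lower, and 3 of 10 gastric genes higher. The part of these cell types in the origin difference was not tested. Sis stood at 2.88 and 2.77 in the Sto organoids, a difference of -9.12 ± 0.19 (557-fold, adjusted p = 5.29e-05). Mgam stood at 4.32 and 4.15 there, against 6.15, 11.81 and 11.55 in SI organoids, and the difference without array 1 was -7.44 ± 0.20 (adjusted p = 5.29e-05).

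The other 6 called genes were Slc5a1 (-7.27), Anpep (-5.47), Slc2a2 (-5.20), Treh (-4.65), Slc2a5 (-4.33) and Dpp4 (-4.08), with adjusted p between 6.19e-05 and 0.00357. Against control Sto SCs the carriers stood at like values, with a difference in Sto organoids in SI medium of -0.23 ± 2.07 for Slc5a1 and 0.05 ± 1.54 for Slc2a2, and neither was called. The exceptions to the call were Lct (-1.32 ± 0.50, adjusted p = 0.141) and Alpi (-3.80 ± 1.30, adjusted p = 0.110). The sign for Alpi, -1.20 with all arrays, turned to 1.02 without Sto organoids in SI medium 1.

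**Figure D3:**
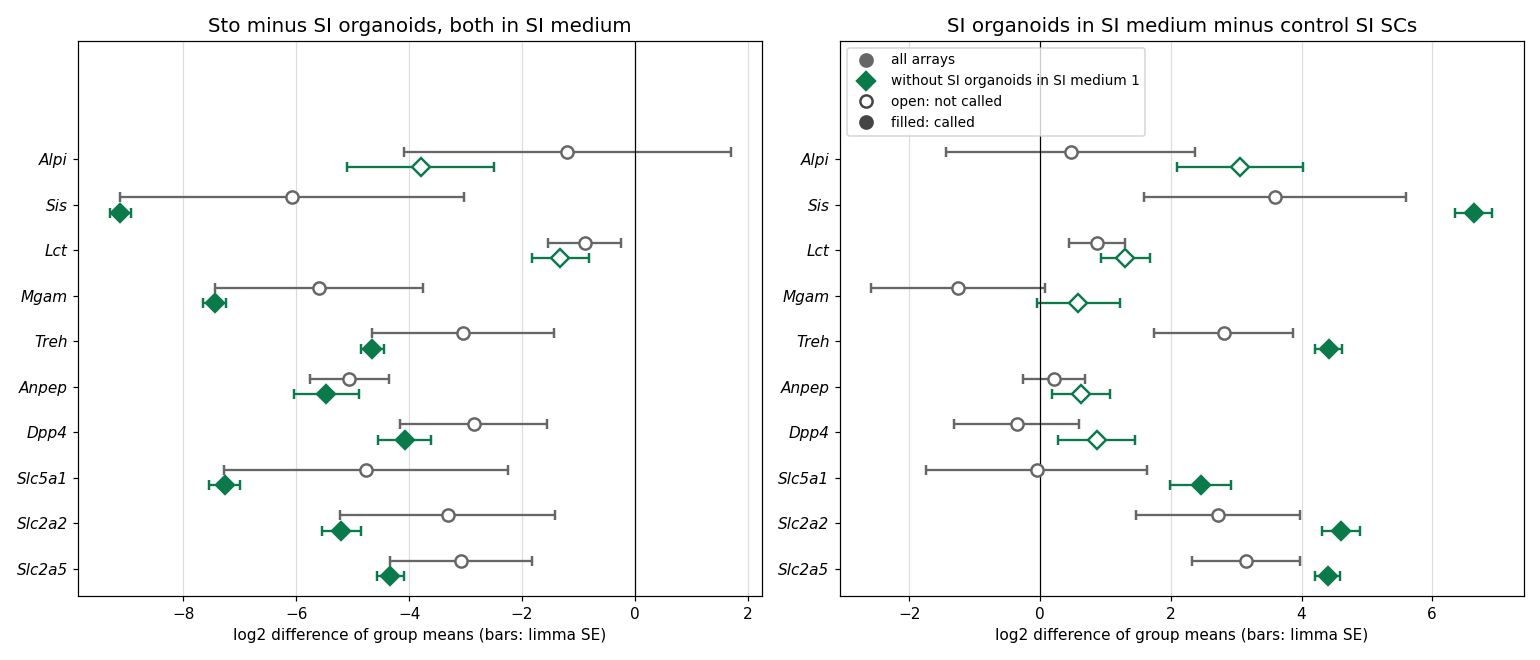
Difference (x axis, log2, bars show the limma SE) of each of the 10 genes between Sto and SI organoids in SI medium (left) and between SI organoids in SI medium and control SI SCs (right), with all arrays (grey circles) and without the library labelled SI organoids in SI medium 1 (green diamonds), filled where called. The number of called genes went from 0 to 8 on the left and from 0 to 5 on the right, and the errors narrowed.

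Sto medium was compared with SI medium over both origins in an additive fit. By limma, 0 of the 10 genes were called, and 0% of all genes were called lower and 0% higher, while 1816 genes had an unadjusted p under 0.05. The errors of the 10 genes were wide, from 0.58 for Lct to 2.70 for Sis. There was 1 array of each origin in Sto medium, so the values within an origin are descriptions. SI organoids in Sto medium had Alpi at 9.17, Sis at 5.04, Slc5a1 at 8.83 and Treh at 3.31, each inside the range of the control SI SCs, which had grown in the same medium. This held for 8 of the 10 genes, all but Dpp4 (7.02) and Slc2a2 (4.34), and for 48.9% of all genes. Against the mean of SI organoids in SI medium 2 and 3, the same array was lower for all 10 genes, by 0.81 for Anpep and 0.94 for Mgam, and by 6.90 for Sis. Both arrays in SI medium lay above it for 29% of all genes.

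Stomach organoids went their own way in Anpep and Alpi. Anpep was at 5.65 and 7.54 in stomach organoids given SI medium, while every other array of the series, stomach or intestine, lay between 10.84 and 12.16. Sto organoids in Sto medium had 11.38. Against control Sto SCs the difference was -5.21 ± 0.58 (37.0-fold, adjusted p = 0.00124), which made Anpep the 1 of the 10 genes called lower, with 0 higher. Over all genes, 3.74% were called lower and 2.3% higher there. Anpep stayed called when any single array of these 2 groups, or the library labelled SI organoids in SI medium 1, was left out, though not by the methods' t-test after adjustment (adjusted p = 0.229).

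In stomach organoids given SI medium, Alpi was at 6.07 and 10.51, against 3.49 and 3.67 in control Sto SCs and 3.72 in Sto organoids in Sto medium. Both arrays lay above all other stomach arrays, with a wide spread between them (SD 3.14). The difference from control Sto SCs was 4.71 ± 2.33 and was not called in the fit of all 14 arrays (adjusted p = 0.313). In a fit without the library labelled SI organoids in SI medium 1, which was chosen after seeing the data, its SE fell to 1.06 and it was called (adjusted p = 0.0191). Mgam was also called in that fit, lower by 3.44 ± 0.69 (adjusted p = 0.0114). The intestinal Akp3 showed no such level in these organoids, at 4.70 and 4.27. For control Sto organoids kept in intestinal medium, the study reports no expression of alkaline phosphatase, which it shows in images and not as RNA. It also names SI medium as the one that lets stomach organoids differentiate. How the array signal and those images relate was not tested.

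The Sto organoids in SI medium were unlike the other stomach arrays in cell type markers as well. Lgr5 stood at 4.20 and 4.32 there, against 9.29 in Sto medium, and all 4 proliferation genes were called lower than in control Sto SCs. The gastric surface genes Muc5ac (12.28 and 12.03) and Gkn1 (12.47 and 12.45) were near the top of the scale, where Sto organoids in Sto medium had 3.59 and 5.21. Against control Sto SCs, 4 of the 10 gastric genes were called higher and 1 lower. Cblif stood at 4.73 on both arrays, against 10.72 and 10.22 in control Sto SCs. Muc6 stood at 5.82 and 8.15, against 12.65 and 12.44, and Pgc at 6.05 and 7.27, against 9.71 and 9.84. Of the 10 enterocyte markers, 1 was called higher than in control Sto SCs. This was Krt20 (7.35, adjusted p = 0.00634), which also marks mature gastric surface cells. Rbp2 stood at 6.47 and 9.21 and Cdhr5 at 4.23 and 6.13, neither called, and both were higher on the array with the higher Alpi. Fabp1, Apob and Vil1 were also higher on that array, but Fabp2, Apoa1, Apoa4, Mttp and Krt20 were lower on it. The single markers were thus split. The mean of the enterocyte list, each gene centred on its own mean, was -0.44 on array 1 and 0.15 on array 2, the one with the higher Alpi. The part of these cell types in the levels of Anpep and Alpi was not tested.

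The difference between origins was itself compared between organoids and sorted cells. Anpep was the 1 of the 10 genes called, with a difference of -5.42 ± 0.75 (adjusted p = 0.0167) and 0 higher, beside 0.478% of all genes lower and 0.367% higher. It was lower in Sto than in SI organoids on all arrays in SI medium, and not lower in Sto than in SI SCs on any. The call was lost without control SI SCs 1 or without either control Sto SC array (adjusted p = 0.0571 to 0.0794). Without the library labelled SI organoids in SI medium 1, 6 of the 10 genes were called lower and 0 higher, beside 2.88% and 1.66% of all genes, namely Sis, Mgam, Treh, Anpep, Slc2a2 and Slc2a5. Alpi was positive both with and without that library (4.24 ± 3.01 and 1.65 ± 1.43), opposite in sign to the called genes, and was not called.

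The related lists were read in the organoids with and without the library labelled SI organoids in SI medium 1. With it, limma called 0 of the 16 other brush border hydrolases in either organoid comparison, with 1 at an unadjusted p under 0.05 for origin and 4 against control SI SCs. Against control SI SCs it also called 0 of the 11 intracellular sugar genes (3 at an unadjusted p under 0.05), 0 of the 15 other sugar carriers (4), 0 of the 10 enterocyte markers (0) and 0 of the 6 goblet markers (1). Among 5 enteroendocrine (4), 5 Paneth (1) and 4 tuft markers (1), 0 were called there as well. The counts that follow are without that library. Of 16 other brush border hydrolases, 9 were called lower in Sto than in SI organoids in SI medium and 0 higher, with a median of -2.34 beside -4.93 for the 10 genes. Enpep, for aminopeptidase A, stood at 8.37 and 9.75 in SI organoids in SI medium 2 and 3, and between 2.85 and 3.81 on the other 12 arrays. Mme, for neprilysin, shared the high values on those arrays (9.57 and 10.18), but was also at 6.38, 7.31 and 8.55 in the Sto organoids. In SI organoids in SI medium, 7 of the 16 hydrolases were called higher than in control SI SCs and 0 lower, among them Enpep (5.58), Mme (6.05), Xpnpep2 (4.10) and Mep1a (3.84).

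Sugar handling inside the cell moved with the carriers of the 10 genes, whereas the other carriers did not as a list. Of 11 intracellular genes, 6 were called higher in SI organoids in SI medium than in control SI SCs and 0 lower. G6pc, for the glucose-6-phosphatase that frees glucose, stood at 9.54 and 9.07 in SI organoids in SI medium 2 and 3 and between 3.07 and 3.38 on the other 12 arrays. Khk and Tkfc, for the fructose-breaking ketohexokinase and triokinase, were higher by 3.08 (adjusted p = 6.34e-05) and 2.29 (adjusted p = 0.000302). Of 15 other sugar carriers, 1 was called higher, Slc5a4b (2.25, adjusted p = 0.00904), and 1 lower, Slc2a1 (-1.41, adjusted p = 0.00271), with a list median of 0.01. Of 10 enterocyte markers, 8 were called higher and 0 lower, and 5 of 6 goblet markers were called higher as well. Also called higher were 4 of 5 enteroendocrine, 3 of 5 Paneth and 1 of 4 tuft markers, with 0 lower. Of 5 intestinal stem cell genes, 1 was called higher and 2 lower, and 0 of 4 proliferation genes were called. Transcripts that mark absorptive, goblet, enteroendocrine and Paneth cells were thus higher on the same arrays as the 10 genes, and their part was not tested.

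**Figure D4:**
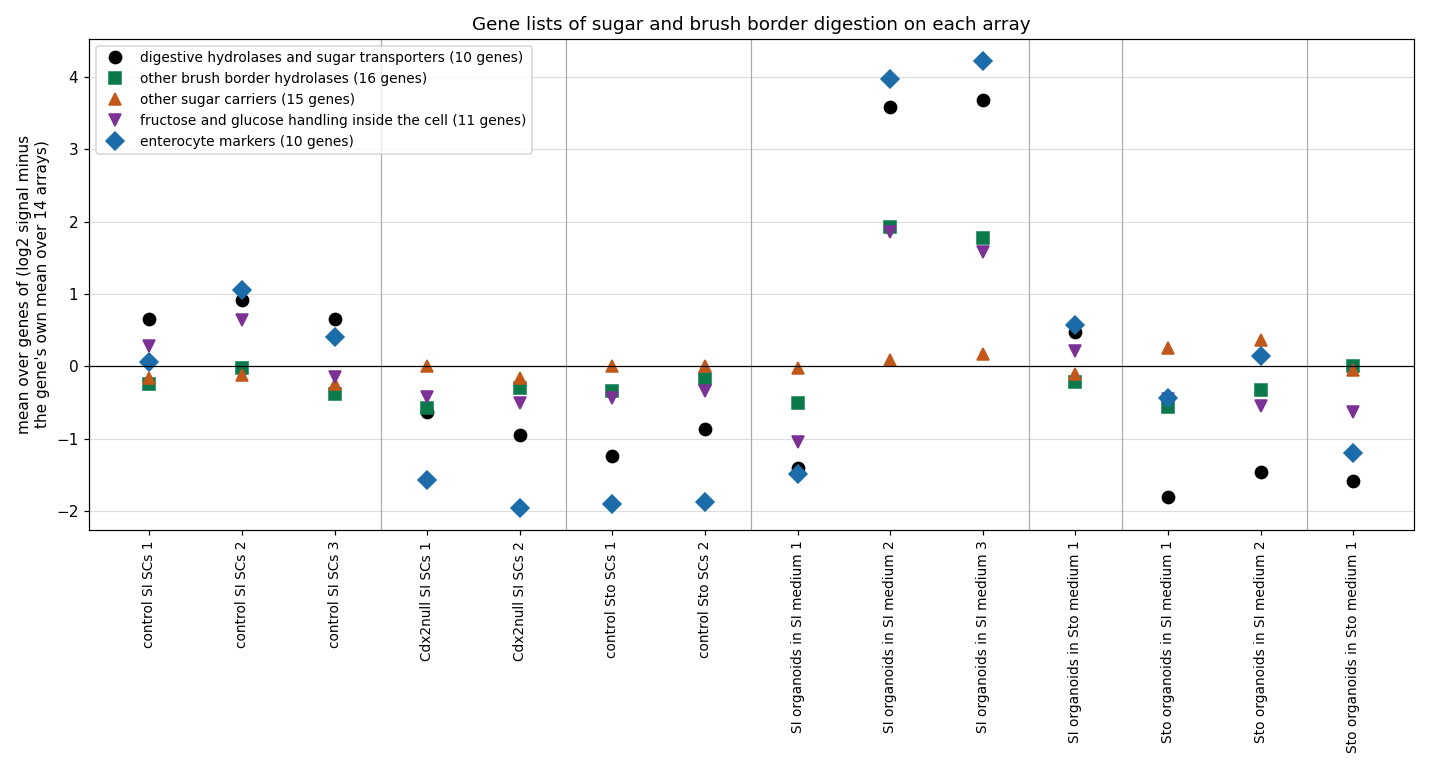
Mean of each gene list on each of the 14 arrays (y axis, log2 signal with each gene centred on its own mean over the arrays), for the 10 genes, the other brush border hydrolases, the other sugar carriers, the enzymes of fructose and glucose handling and the enterocyte markers. The 10 genes and the enterocyte markers stood above 3.5 in SI organoids in SI medium 2 and 3 and below 1.1 on all other arrays, while the other sugar carriers stayed near 0.

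Taken as a mean over the 10 genes, each centred on its own mean, SI organoids in SI medium 2 and 3 reached 3.58 and 3.69. Control SI SCs lay between 0.65 and 0.91, and the array of SI organoids grown in Sto medium had 0.48. Cdx2null SI SCs had -0.64 and -0.95, control Sto SCs -1.25 and -0.87, and the stomach organoids ran from -1.81 to -1.46. The library with the disputed label, SI organoids in SI medium 1, had -1.40. The arrays of Cdx2null SI SCs and control Sto SCs overlapped. The 5 genes most like this mean over the 14 arrays were Nr5a2 (Pearson r = 0.986), Tkfc (0.984), Abcg2 (0.980), Mttp (0.978) and Clec2h (0.976). These correlations describe arrays that fall into groups, with the 2 highest arrays far from the rest.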

How the data were processed

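Each of 14 RNA samples was run on its own Affymetrix Mouse Gene ST 1.1 array. The authors deposited log2 expression values for 35556 probe sets, summarised by RMA-sketch in Affymetrix Power Tools (version not given in the sources used here). These log2 values were used as deposited. Of the value columns, 0 could not be matched to a sample. Probe sets with 1 gene symbol in the platform annotation (21218) were kept, 21185 symbols were updated through Entrez IDs, and the probe set with the highest mean was kept for each gene, which left 18820 genes.

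Group means were compared in R 4.3.3 by lmFit and eBayes of limma 3.58.1, 2-sided, with Benjamini-Hochberg adjustment over the 18820 genes. The comparisons of sorted cells used the 7 SC arrays, those of origin and medium the 7 organoid arrays, and the others all 14. A gene was called at an adjusted p under 0.05 and a fold of at least 2. Errors are limma SEs. The fits were tested on simulated data. The 10 genes and all lists were chosen with earlier results of these data known, and the report names all 10 genes, up to 4 called genes of a list in each direction (with any named as not called), Cdx2, Lgr5 and the 5 genes most like the mean of the 10. Rbp2, Cdhr5, Muc5ac, Gkn1 and other list genes given by level alone were named after their values were seen. Alternatives were quantile normalisation, median centring, removal of dim genes (above 6 on fewer than 2 arrays), the mean of a gene's probe sets, the replicate block, all 14 arrays in the fit, the methods' t-test, and leaving out arrays. A few genes of the lists were not analysed here and are in no count. RMA keeps silent genes above 0 and compresses the folds of weak genes. Precision is set by how few arrays there were.

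Of the marker lists, those of the enteroendocrine, tuft, Paneth, mesenchyme, immune and endothelium kinds were read only as a check of cell types. Promoter sequences came from RefSeq windows of GRCm38.p6, in which all 10 genes were matched.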

Additional observations from a re-analysis of the deposited data

Results flagged for a closer look

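The difference between stomach and intestine in Anpep, the aminopeptidase N gene, was not the same in organoids as in sorted stem cells. In SI medium, Sto organoids stood at 5.65 and 7.54 and SI organoids at 10.84, 11.97 and 12.16, while control Sto SCs stood at 11.74 and 11.88 and control SI SCs at 11.61, 11.53 and 11.19. The difference of the 2 differences was -5.42 ± 0.75 (limma SE, adjusted p = 0.0167), lower in 2 of 2 Sto organoids in SI medium than in every other array. It compares unsorted organoids in SI medium with sorted cells from Sto medium. The 1 array of Sto organoids in Sto medium, unsorted and in the medium of the sorted cells, stood at 11.38.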

How the results depend on the processing

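Few arrays lie behind each result. Of the values of the 10 genes under other settings, 141 of 155 kept their side of the threshold for Cdx2null against control SI SCs, 140 of 155 for control Sto against control SI SCs, 145 of 145 for Cdx2null against control Sto SCs, 126 of 139 for origin in organoids and 129 of 129 for medium. Of all 1150 such values, 64 changed sign, 63 of them called neither before nor after. The other was Slc5a1 in SI organoids in SI medium against control SI SCs, at 2.46 without the library labelled SI organoids in SI medium 1, and its values without single arrays ran from -1.31 to 2.46.

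For Cdx2null against control SI SCs, 287 genes were called, against 458 after median centring, 185 without both differently exported arrays, 4 with all 14 arrays in the fit, and by the methods' t-test 498 at its unadjusted threshold and 0 after adjustment. Leaving out single arrays gave 131 to 320 genes and 1 to 3 of the 10. All 14 arrays in the fit and the adjusted t-test each left 0 of the 10, but all arrays except the library labelled SI organoids in SI medium 1 gave 343 genes and 3 of the 10. With a term for sex, read from Kdm5d and Xist after seeing the data, 2 of the 10 remained called (Alpi and Slc5a1), and Sis had an adjusted p of 0.0525. Of the control SI SCs, only array 2 shares its sex with the Cdx2null and control Sto SC arrays.

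For control Sto against control SI SCs, 538 genes were called, against 307 without both differently exported arrays, 29 with all 14 arrays, 828 and 0 by the t-test, and 262 with the term for sex. Single arrays left out gave 160 to 445 genes and 1 to 3 of the 10, and again all 14 arrays and the adjusted t-test left 0, against 622 genes and 4 of the 10 without that library in the fit. For Cdx2null against control Sto SCs, the unadjusted t-test called 15 genes, and leaving out single arrays gave 0 to 17 genes and 0 of the 10.

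For origin in organoids, 266 genes were called, against 561 after quantile normalisation, 407 after centring, 0 without both differently exported arrays, 0 with the replicate block, 1148 with all 14 arrays, and 1022 and 0 by the t-test. Of the 10 genes, 1 (Anpep) was called after quantile normalisation, centring or removal of dim genes, with all 14 arrays and by the unadjusted t-test. Leaving out single arrays gave 0 to 2609 genes and 0 to 8 of the 10. For medium that range was 0 to 20 genes and 0 of the 10.

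For SI organoids in SI medium against control SI SCs, 30 genes were called, against 66 after quantile normalisation, 4 without both differently exported arrays, 51 with the replicate block, and 220 and 0 by the t-test, with 8 to 961 genes and 0 to 5 of the 10 when single arrays were left out. For Sto organoids in SI medium against control Sto SCs, 1135 genes were called, against 0 by the adjusted t-test (0 of the 10) and 1738 (3 of the 10) without the library labelled SI organoids in SI medium 1, and 403 to 628 genes and 1 of the 10 without single arrays of the 2 groups. For the difference of origin differences, 159 genes were called, against 324 after quantile normalisation, 56 (0 of the 10) without both differently exported arrays, and 19 to 854 genes and 0 to 6 of the 10 without single arrays.

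Replicate numbers are shared between groups, but nothing says that they pair samples, and the deviations of same-numbered arrays from their group means correlated between -0.19 and 0.40. With the replicate block, Sis was no longer called in Cdx2null SI SCs (adjusted p = 0.0542), which left 2 of the 10 there, 3 in control Sto SCs and 0 in origin in organoids. For medium it left 0 genes called, with the 1 array whose label gives no number as a block of its own. Median centring moved the median of all genes by over 0.1, from 0.03 to -0.10 for Cdx2null against control SI SCs, from -0.01 to -0.11 for Cdx2null against control Sto SCs, from 0.00 to 0.16 for medium and from 0.01 to -0.13 for Sto organoids against control Sto SCs. It also took the share of higher calls from 38.1% to 27.1% in the last of these and from 43.4% to 32.4% for the difference of origin differences. The cause of these shifts was not tested.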
